A study of Mus musculus with 72 samples.

Results

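Il6, Ccl2, Ccl7, Cxcl1, Lcn2, Saa3, Ptgs2 and Il1rl1 are 8 mouse genes of the inflammatory response, chosen by name from the 22380 protein-coding genes of the GENCODE M1 annotation of the mm9 genome. For each of them, the peaks of CEBPB, H3K27ac, p300 and Brd3 that touched the gene body or the 50 kb on either side were compared between wild-type and mutant mouse embryonic fibroblasts (MEFs). The gene body with these flanks is called its window. WT cells carried intact copies of the genes for the nucleosome binding proteins HMGN1 and HMGN2 (Hmgn1+/+n2+/+), and DKO cells lacked both (Hmgn1-/- n2-/-). The cells of both genotypes were of the C57BL/6 strain. No treatment and no embryonic age are given in the sources used here, and the cells were not described as stimulated. Each antibody was used on 2 biological replicates per genotype, 16 libraries in all. Every library came as a list of peaks, with the fold enrichment of each peak, which is the pileup of fragments at its summit over the local background, and with its −log10 q. A site that is missing from a list lay under the threshold of the peak caller there, and this does not show that the protein was absent. RNA levels of these genes were not analysed here.

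CEBPB is a leucine zipper transcription factor that binds palindromic elements close to TTGCNNAA, and it acts with NF-kB and AP-1 factors at cytokine, chemokine and acute phase genes. p300 is an acetyltransferase that writes H3K27ac, a mark of active promoters and enhancers, and Brd3 is a bromodomain protein that binds acetylated histones. In fibroblasts, the genes studied here are known for their response to IL-1, TNF and bacterial products. Il6 encodes a cytokine, Ccl2, Ccl7 and Cxcl1 encode chemokines, Lcn2 and Saa3 encode secreted acute phase proteins, Ptgs2 encodes the inducible cyclooxygenase and Il1rl1 encodes the receptor of IL-33.

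The lists were strongly unequal in length. CEBPB had 14197 to 14692 peaks in WT and 4886 to 5328 in DKO, Brd3 had 31404 to 33072 and 8970 to 11549, p300 had 5398 to 7323 and 2974 to 3325, and H3K27ac had 84760 to 84850 and 76968 to 77614. The lowest background at a peak, a measure of sequencing depth, lay at 1.75 and 1.89 in WT and at 1.24 and 1.54 in DKO for Brd3, and at 1.58 and 1.15 against 1.22 and 1.27 for p300. It lay at 1.64 and 1.44 against 1.77 and 1.87 for H3K27ac, and it could not be solved for CEBPB. The part of depth in the results was not tested. The cell type was checked with H3K27ac at the starts of marker genes. All 13 fibroblast markers listed had an H3K27ac peak within 1000 bp of a start in all 4 libraries. Of 8 markers of macrophages and other blood cells, 3 did (Csf1r, Cd68 and Cd14). Ptprc, Itgam, Emr1, Cd3e and Cd79a had none in any library, and neither did any of 6 epithelial markers. Of 4 endothelial markers, 1 had a peak, in DKO replicate 1. The summed fold enrichment over the blood cell markers was 27.7 and 19.6 in WT and 21.9 and 21.1 in DKO.

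The strongest WT CEBPB site of each gene is given here as mm9 reference sequence, to show what lay under the peak of highest rank there. With the Il6 promoter these are 7 sites, of which 4 (Il6 exon, Ccl2 and Ccl7, Cxcl1 and Ptgs2) were called in all 4 libraries and 3 were lost in DKO, out of 14 lost sites in the windows. Sequences run 5′ to 3′ on the strand that reads TTGCNNAA, and capitals mark that motif where it lies nearest to the summit. The Il6 exon site is chr5:30341342-30341409 on the minus strand, the Il6 promoter site is chr5:30339496-30339563 on the minus strand, the Ccl2 and Ccl7 upstream site is chr11:81820420-81820487 on the plus strand and the Cxcl1 upstream site is chr5:91291159-91291226 on the minus strand. The Lcn2 upstream site is chr2:32274989-32275056 on the minus strand, the Ptgs2 promoter site is chr1:151947062-151947129 on the plus strand and the Il1rl1 distal site is chr1:40526624-40526691 on the plus strand. The Il6 promoter site is the strongest that Il6 lost in DKO cells and was added for that reason after its values were seen.
Il6 exon site: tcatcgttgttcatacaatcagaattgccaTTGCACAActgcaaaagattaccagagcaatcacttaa
Il6 promoter site: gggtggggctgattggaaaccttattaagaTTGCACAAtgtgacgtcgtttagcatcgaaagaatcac
Ccl2 and Ccl7 upstream site: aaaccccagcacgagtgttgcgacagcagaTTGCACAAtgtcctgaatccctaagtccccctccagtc
Cxcl1 upstream site: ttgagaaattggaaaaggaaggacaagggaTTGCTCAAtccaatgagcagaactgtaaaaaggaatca
Lcn2 upstream site: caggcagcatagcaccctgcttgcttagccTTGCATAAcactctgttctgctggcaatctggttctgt
Ptgs2 promoter site: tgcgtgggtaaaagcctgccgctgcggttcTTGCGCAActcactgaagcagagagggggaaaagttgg
Il1rl1 distal site: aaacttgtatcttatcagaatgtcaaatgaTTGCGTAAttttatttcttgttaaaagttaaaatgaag
No sequence is shown for Saa3, which had no CEBPB peak in its window in any of the 4 libraries.

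CEBPB peaks were fewer in DKO cells around 6 of the 8 genes, with both DKO libraries below both WT libraries. These were 6 of the 7 genes with enough peaks to be tested, beside 61.5% of the 6406 windows tested over the genome. Counting each peak once over the 7 separate regions that the 8 windows form, WT libraries had 29 and 25 CEBPB peaks and DKO libraries had 8 and 8. The means were 27 ± 2.83 and 8 ± 0 (SD, n = 2), a log2 ratio of -1.75, and the same ratio over all CEBPB peaks of the genome was -1.50. An exact permutation test of 2 libraries against 2 cannot give a two-sided p below 0.333, so no such test was made. Of 23 sites that both WT libraries called in these regions, 14 had no peak in either DKO library, which is 60.9% (95% Wilson interval 40.8 to 77.8%, counting error only), beside 55.2% of 12086 sites over the genome. None of the CEBPB sites of the windows was called in DKO alone, beside 1.89% of the 4340 sites of both DKO lists. The interval of the lost share at these genes holds the share of the genome. It treats neighbouring sites of the same 4 libraries as independent, and the spread between libraries does not enter. The lost share was 72.7% (8 of 11) within 10 kb of the gene bodies, and 37.5% (3 of 8) beside 16.9% of the genome when each list was held to the same number of top peaks. The log2 ratio of peak numbers was -0.18 in that setting. By summed fold enrichment, both DKO libraries lay below both WT libraries at 7 of 7 tested genes, beside 92.9% of windows tested, and Saa3 had no peak.

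**Figure D1:**
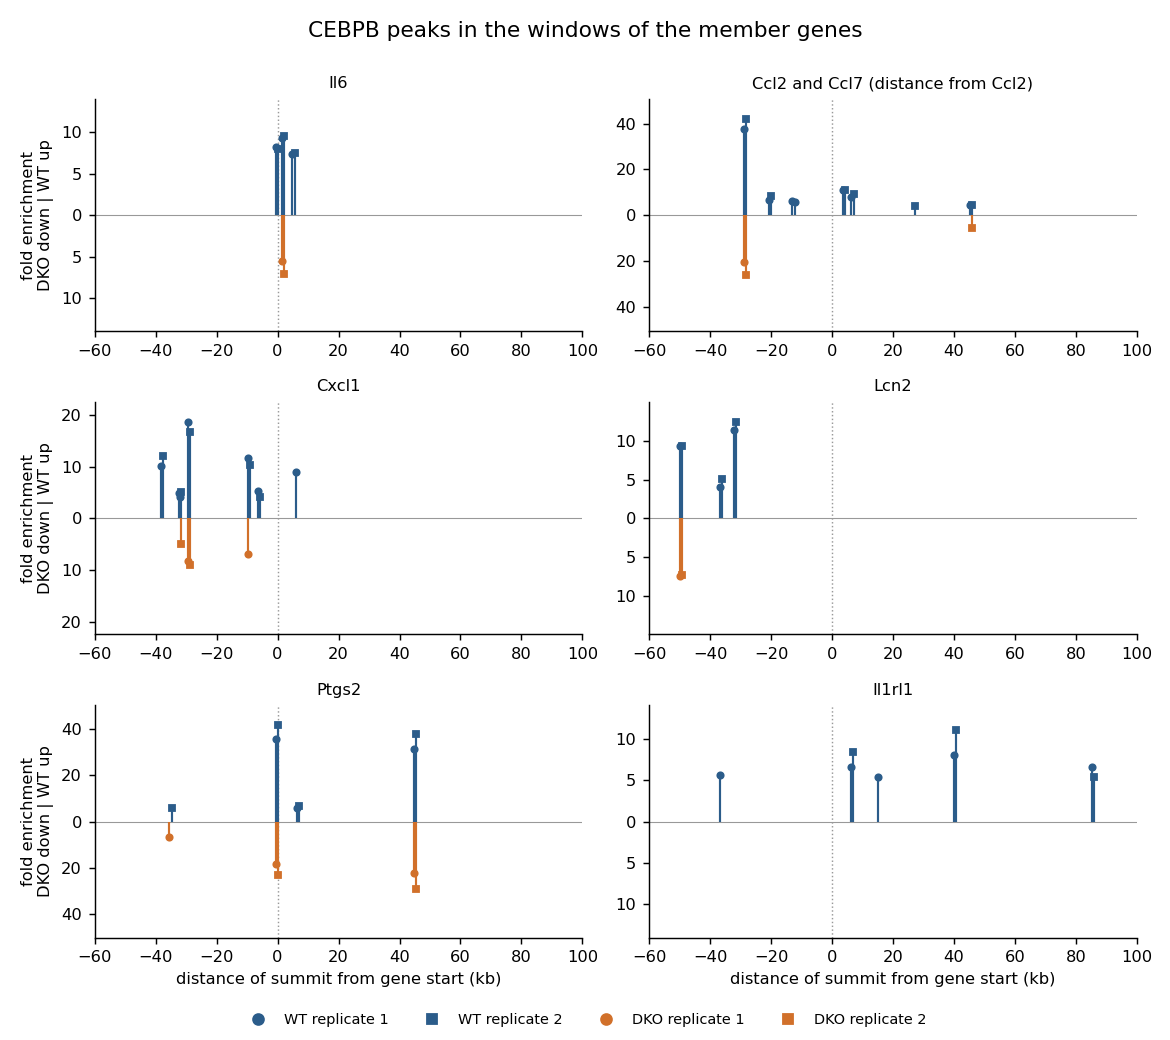
CEBPB peaks around 7 of the genes by the distance of their summit from the gene start (kb, negative is upstream). Height is fold enrichment, with WT libraries drawn upward and DKO libraries downward, libraries of one genotype are drawn slightly apart, and each panel has its own scale. The 2 high peaks at Ptgs2 and the high peak upstream of Ccl2 are present in all 4 libraries, while no DKO peak is seen at Il1rl1.

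Il6 had 3 CEBPB peaks in both WT lists and 1 in both DKO lists. The promoter peak, with its summit 209 bp upstream of the start (chr5:30339408-30339582, intergenic), had a fold enrichment of 8.20 and 8.04 in WT and was not called in DKO. The peak that remained lies 1672 bp into the gene over coding exon sequence (chr5:30341262-30341445), with fold enrichments of 9.33 and 9.56 in WT and 5.56 and 7.06 in DKO. At the exon peak both DKO values lay below both WT values (log2 change -0.59 ± 0.19 SE, limma adjusted p = 0.00742), and this call was lost without DKO replicate 1 (limma adjusted p = 0.143). Another peak, in an intron 5247 bp from the start, had 7.40 and 7.48 in WT and none in DKO. All of these summits had a TTGCNNAA motif within 100 bp. The summed fold enrichment of the window was 24.9 and 25.1 in WT over 511 and 490 bp of peaks, and 5.56 and 7.06 in DKO over 170 and 180 bp. This was a log2 change of -1.84 ± 0.16 (SE, scale log2 of the sum + 1, limma adjusted p = 0.00257).

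The chemokine genes Ccl2 and Ccl7 lie next to each other, so that their windows share most of their peaks. The Ccl2 window held 7 and 6 CEBPB peaks in WT and 1 and 2 in DKO, and the Ccl7 window held 1 more in each WT library. The peak of highest enrichment lies 28621 bp upstream of Ccl2 and 38762 bp upstream of Ccl7 (chr11:81820302-81820766, intergenic). Its fold enrichment was 37.8 and 42.2 in WT and 20.4 and 26.2 in DKO. This site stayed in all 4 libraries at a lower level (log2 change -0.79 ± 0.18 SE, limma adjusted p = 0.000248 over 4193 shared CEBPB sites). It was 1 of 2 sites in the windows with a match to the NF-kB consensus, here 30.5 bp from the summit. A weaker site between Ccl2 and Ccl7 (chr11:81852725-81853062), 3882 bp downstream of the Ccl2 start and 6259 bp upstream of Ccl7, had 10.9 and 10.99 in WT and no peak in DKO. The windows summed to 79.8 and 79.5 in WT and 20.4 and 31.9 in DKO for Ccl2, over 1459 and 1400 bp against 287 and 435 bp of peaks, and to 88.2 and 87.8 against 20.4 and 31.9 for Ccl7, over 1631 and 1540 bp against 287 and 435 bp. The mean enrichment of the peaks that were called was 11.4 and 13.3 in WT and 20.4 and 15.95 in DKO at Ccl2, and thus higher in DKO, where the weaker peaks were missing. The log2 change was -1.60 ± 0.25 (SE, limma adjusted p = 0.00986) for Ccl2 and -1.75 ± 0.25 (SE, limma adjusted p = 0.00805) for Ccl7. These calls were lost when WT replicate 1 or WT replicate 2 was left out, with limma adjusted p between 0.0863 and 0.0991.

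At Cxcl1, the gene of a neutrophil chemokine, there were 7 and 5 CEBPB peaks in WT and 2 and 2 in DKO. The strongest lies 29089 bp upstream (chr5:91291051-91291314, intergenic), and its fold enrichment was 18.7 and 16.7 in WT and 8.23 and 9.10 in DKO. It changed by -1.03 ± 0.17 on the log2 scale (SE, limma adjusted p = 2.68e-06 over 4193 shared sites), and both DKO values lay below both WT values. The strongest lost site, 37840 bp upstream (chr5:91282302-91282537), had 10.2 and 12.1 in WT. The window summed to 63.8 and 48.4 in WT over 1452 and 1096 bp, and to 15.2 and 14.1 in DKO over 345 and 377 bp, a log2 change of -1.86 ± 0.17 (SE, limma adjusted p = 0.00280). No CEBPB peak lay within 1000 bp of the starts of Ccl2, Ccl7 or Cxcl1 in any library.

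Of the acute phase genes, Lcn2 had 3 CEBPB peaks in both WT lists and 1 in both DKO lists, all of them in introns of Slc25a25, the gene of a mitochondrial carrier. The strongest (chr2:32274926-32275133), 31706 bp upstream of Lcn2 in an intron of Slc25a25, had 11.4 and 12.4 in WT and no peak in DKO. The one that all 4 libraries called (chr2:32292643-32292832) had 9.34 and 9.38 in WT and 7.47 and 7.29 in DKO, and its change of -0.34 ± 0.19 (log2, SE) did not pass the test (limma adjusted p = 0.0981). The window summed to 24.7 and 26.9 in WT over 516 and 536 bp and to 7.47 and 7.29 in DKO over 164 and 159 bp, a log2 change of -1.68 ± 0.11 (SE, limma adjusted p = 0.00144). Lcn2 has 5 other coding genes in its window, and the lists do not tie a peak to a target. Saa3 did have a TTGCNNAA motif in its promoter, the 250 bases before to 50 after the start, but 0 CEBPB peaks.

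Ptgs2 had the highest CEBPB peak at a start among the genes studied. The summit lies 151 bp upstream of the start (chr1:151946899-151947247), and fold enrichment was 35.5 and 41.6 in WT and 18.3 and 23.2 in DKO. A distal peak 45069 bp downstream (chr1:151992170-151992471, intergenic) had 31.2 and 37.5 in WT and 22.4 and 28.9 in DKO. Both were called in all 4 libraries and both were lower in DKO, by -0.90 ± 0.18 and -0.43 ± 0.18 (log2, SE, limma adjusted p = 3.74e-05 and 0.0343). Centred on the median shared site, neither was called, with -0.16 at the promoter (limma adjusted p = 0.356) and 0.31 at the distal site (limma adjusted p = 0.0887), where the direction turned. Without centring, the second call was lost when WT replicate 1, WT replicate 2 or DKO replicate 1 was left out, with limma adjusted p of 0.093, 0.390 and 0.145. The distal summit had a TTGCNNAA motif 2.5 bp away and an AP-1 motif 14 bp away. The number of peaks overlapped between genotypes, with 3 and 4 in WT and 3 and 2 in DKO, and the site that was lost lies over untranslated exon sequence 6717 bp from the start (chr1:151953853-151954138), with 5.73 and 6.85 in WT. The window summed to 72.4 and 91.8 in WT over 887 and 914 bp and to 47.3 and 52.1 in DKO over 672 and 552 bp, a log2 change of -0.70 ± 0.16 (SE, limma adjusted p = 0.0267). Without WT replicate 1 or WT replicate 2 the limma adjusted p was 0.10001 and 0.166.

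Il1rl1 lost every CEBPB peak of its window. WT libraries had 5 and 3, with summed fold enrichments of 32.1 and 24.7 over 854 and 534 bp, and both DKO libraries are listed at 0, so that no fold is given. The window passed the filter on peak number through WT alone, so that it had to differ. Of 5 sites, 3 were called in both WT libraries. The strongest (chr1:40526551-40526762) had 7.97 and 10.98 and lies in an intron of Il18r1, the gene of the IL-18 receptor. Another (chr1:40492855-40493033) had 6.55 and 8.40 and lies in an intron of Il1rl1, 510 bp from an internal start of that gene. The last, 83 bp from a start of Il18rap, had 6.63 and 5.31. All were of low enrichment beside the Ccl2 and Ptgs2 peaks.

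Over all windows, limma called 7 of the 7 genes with enough CEBPB peaks to be tested (a mean of at least 1 peak per library) as lower in DKO, with Il1rl1 among them, beside 75.4% of 6406 windows called lower and 0.453% called higher. The median log2 change was -1.75 over these 7 genes and -1.48 over all windows, and genes without enough peaks did not enter either. When values were centred on the median window, 2 of the 7 genes were called, Il1rl1 lower and Ptgs2 higher (+0.75 ± 0.12, limma adjusted p = 0.0145), beside 25.3% of all windows lower and 22.7% higher. Il6, Ccl2, Ccl7, Cxcl1 and Lcn2 then lay between -0.41 and -0.15 and were not called. Ptgs2 was thus less reduced than the typical window. The call of Il1rl1 rests on DKO libraries listed at 0, in a window that passed the filter through WT alone, and its size relative to the typical window cannot be given. At the 6 sites of these windows that all 4 libraries called, mean fold enrichment in DKO was between 0.489 and 0.788 of that in WT, and limma called 5 of them lower, beside 67.7% of the 4193 shared sites called lower and 4.27% called higher. Centred on the median site, none of the 6 was called, beside 22.9% called lower and 27.9% called higher, and the values at Ptgs2 (distal), Lcn2 and Il6 turned positive, at 0.31, 0.39 and 0.14. The median of the 6 was then 0.05. Sites that stayed in at least 1 DKO library had a median WT fold enrichment of 10.99 (n = 9, from 4.58 to 40.01), and lost sites had 7.80 (n = 14, from 4.57 to 11.9), beside 13.2 and 7.49 over the genome. A loss from a list and a lower level at a site are the same measurement near the threshold, and this comparison has no test.

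**Figure D2:**
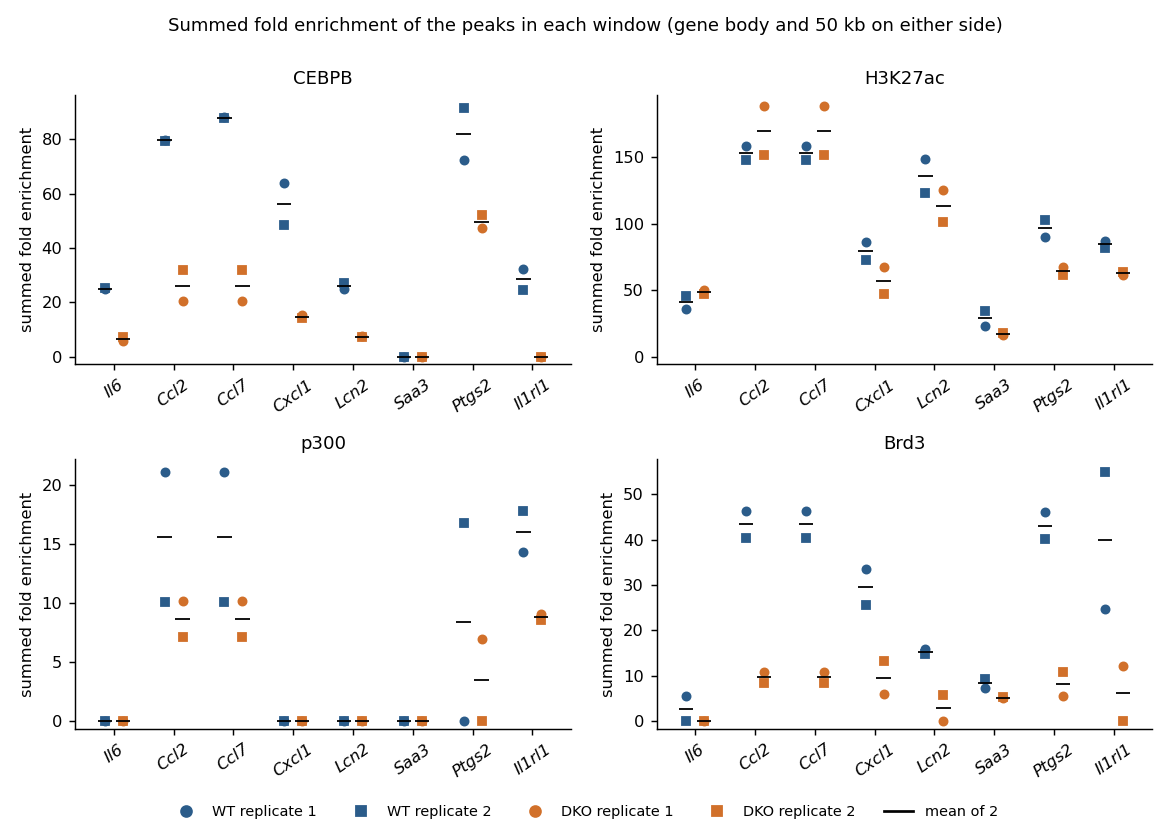
Summed fold enrichment of the peaks in the window of each gene, for each antibody. Points are libraries (circles replicate 1, squares replicate 2, blue WT, orange DKO) and lines are the means of 2 libraries. For CEBPB and for Brd3 both DKO points lie below both WT points at 7 of 8 genes, for H3K27ac at 4, and p300 is 0 in all libraries at 4 genes.

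Each CEBPB summit and the 100 bp on either side were searched for TTGCNNAA on both strands, together with the AP-1 motif TGACTCA and the NF-kB consensus. It was found at 16 of 23 sites that both WT libraries called (69.6%), beside 52.6% of 12086 such sites over the genome, and at 9 of 14 lost sites (64.3%) beside 48.8%. TGACTCA was found at 1 of 14 lost sites and at 3 of 9 sites kept in at least 1 DKO library, beside 13.7% and 22.6% over the genome. The NF-kB consensus was found at 0 lost and 2 kept sites, beside 2.79% and 2.90%. These counts describe the reference sequence around few sites. In the promoters, 250 bases before to 50 after a start, TTGCNNAA lay at Il6, Lcn2, Saa3, Ptgs2 and 1 of 5 starts of Il1rl1, and in 9.77% of 46006 promoters over the annotation. The NF-kB consensus lay at Il6, Cxcl1 and Lcn2, and in 9.24% of promoters, and TGACTCA lay at none of them and in 4.27%.

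H3K27ac peak numbers at these genes were close in the genotypes. Counted once each, there were 82 and 80 peaks in WT libraries and 78 and 68 in DKO libraries, a log2 ratio of -0.15 beside -0.13 over all H3K27ac peaks. Of 54 sites called in both WT libraries, 6 had no DKO peak, 11.1% (95% Wilson interval 5.19 to 22.2%, counting error only) beside 11.2% over the genome. Both DKO libraries had fewer peaks than both WT libraries at 2 of 8 genes, Lcn2 and Ptgs2, beside 28.9% of 17312 windows, and by summed fold enrichment they lay below at 4 of 8, beside 52.8%. Of 49 sites that both DKO libraries called, 6 had no WT peak, 12.2% beside 8.83% of 52020 over the genome. limma called 1 of 8 genes as lower, Ptgs2, and none as higher, beside 14.6% and 1.46% of all windows. None of the 8 was called after centring, beside 2.15% lower and 2.63% higher. The median change was -0.35 over the 8 genes and -0.21 over all windows. Ccl2 and Ccl7 had the same H3K27ac values, so that they are not separate measurements.

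At the Il6 start, where the CEBPB peak was lost, H3K27ac was called in all 4 libraries. The peak there (chr5:30338652-30340673, summit 8 bp from the start) had a fold enrichment of 11.6 and 9.75 in WT and 13.8 and 13.7 in DKO, and the difference of 0.37 ± 0.22 (log2, SE) did not pass the test (limma adjusted p = 0.300). The window of Il6 summed to 35.7 and 45.8 in WT and 50.2 and 47.2 in DKO, with both DKO values above both WT values, beside 9.84% of windows with that order. Its change of 0.26 ± 0.20 was not called (limma adjusted p = 0.369). The strongest lost H3K27ac site of Il6, in an intron 5628 bp from the start (chr5:30345057-30345437), was low, with 4.92 and 4.64 in WT.

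The starts of Ccl2 and Ccl7 carried H3K27ac in all 4 libraries. Their shared window held 21 and 20 peaks in WT and 26 and 21 in DKO, and summed to 158 and 148 against 188 and 152. These sums overlapped between genotypes (log2 change 0.14 ± 0.12 SE, limma adjusted p = 0.448). The peaks covered 13109 and 12976 bp in WT and 17463 and 19025 bp in DKO, a difference that was not tested. The strongest site, 2183 bp upstream of Ccl2 (chr11:81845061-81848794), had 15.7 and 19.5 in WT and 13.8 and 17.2 in DKO (limma adjusted p = 0.610). Over the upstream CEBPB site of Ccl2, H3K27ac (chr11:81820084-81822041) differed by 0.49 ± 0.24 on the log2 scale and did not pass the test (limma adjusted p = 0.200). A site between the genes (chr11:81855028-81856247) was higher in DKO by 0.84 ± 0.26 (log2, SE, limma adjusted p = 0.0453). Its values were 6.01 and 4.43 in WT and 8.34 and 10.2 in DKO, and the call was lost when WT replicate 2, DKO replicate 1 or DKO replicate 2 was left out (limma adjusted p = 0.242, 0.0616 and 0.236). A CEBPB site lost in DKO lies within it (chr11:81855687-81855858), with 7.90 and 9.18 in WT. 2 sites were called in DKO alone, 16481 bp upstream of Ccl2 (chr11:81832447-81832920) with 7.68 and 8.26, and 25668 bp upstream (chr11:81823287-81823577) with 3.79 and 3.14.

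At Cxcl1, the strongest H3K27ac site of the window fell in DKO (chr5:91359517-91361589), from 25.5 and 26.99 to 10.03 and 11.2 (log2 change -1.31 ± 0.19 SE, limma adjusted p = 0.000279 over 42234 shared sites). It lies over the start of the neighbouring gene Mthfd2l, a mitochondrial folate enzyme, and 40379 bp downstream of the Cxcl1 start. At 14820 bp upstream of Cxcl1, H3K27ac was 15.2 and 14.6 in WT and 18.9 and 18.7 in DKO, and did not pass the test (limma adjusted p = 0.291). The sum over the window was 85.9 and 73.0 in WT and 67.1 and 46.8 in DKO (log2 change -0.49 ± 0.19 SE, limma adjusted p = 0.0953), so that the window was not called. With the replicate number as a block it was (limma adjusted p = 0.0471). Whether that number pairs the samples is not settled here. The strongest lost site, 9500 bp upstream (chr5:91310665-91310872), had 6.09 and 4.88 in WT. 1 site, 7166 bp downstream of the Cxcl1 start (chr5:91327135-91327483), was called in DKO alone with 4.43 and 4.35.

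Lcn2 and Saa3 had no H3K27ac peak within 1000 bp of their starts in any library. The acetylated sites of their windows lay at other genes. At Lcn2, a site at the start of Slc25a25 (chr2:32278095-32281255) was 15.3 and 13.7 in WT and 15.5 and 13.1 in DKO (limma adjusted p = 0.966). A site in an intron of Ptges2, a prostaglandin E synthase, 826 bp from its start (chr2:32251911-32252669), had 5.93 and 5.02 in WT and 10.5 and 10.7 in DKO (log2 change 0.95 ± 0.25 SE, limma adjusted p = 0.0178). That call was lost without WT replicate 2, DKO replicate 1 or DKO replicate 2 (limma adjusted p = 0.0772, 0.0618 and 0.0729). The strongest lost site, in an intron of Dnm1 (chr2:32197205-32198103), had 7.28 and 6.54 in WT. Beside the lost CEBPB peak, 1 small site (chr2:32275162-32275438) was called in DKO alone with 5.22 and 3.34. At Saa3, the main site lies at the start of Saal1 (chr7:53965364-53966079), where H3K27ac fell from 18.3 and 24.3 to 12.1 and 12.7 (log2 change -0.76 ± 0.20 SE, limma adjusted p = 0.0175, and 0.178 without WT replicate 2). The Saa3 window summed to 23.1 and 34.6 against 16.5 and 17.5 and was not called (limma adjusted p = 0.103).

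The Ptgs2 window had 14 and 18 H3K27ac peaks in WT and 11 and 11 in DKO, and summed to 90.3 and 103 in WT over 9831 and 10208 bp and to 67.8 and 61.7 in DKO over 8594 and 8614 bp. The log2 change of -0.57 ± 0.15 (SE) passed the test (limma adjusted p = 0.0276), and did not pass when any 1 of the 4 libraries was left out (limma adjusted p from 0.0852 to 0.215) or when values were centred (-0.36, limma adjusted p = 0.196). The broad promoter site itself (chr1:151944585-151949899) had 14.8 and 16.2 in WT and 12.8 and 11.6 in DKO (limma adjusted p = 0.311). 3 sites were lost, the strongest 15728 bp downstream of the start (chr1:151962852-151963125) with 6.32 and 4.93 in WT, and 2 sites of 5.06 and 4.53 and of 3.88 and 4.07 were called in DKO alone, 10593 bp upstream (chr1:151936556-151936738) and 2756 bp upstream (chr1:151944184-151944542).

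In Il1rl1, H3K27ac fell at 2 sites near its internal starts. One (chr1:40496560-40499201), with its summit in a coding exon 140 bp from a start, had 12.8 and 11.6 in WT and 7.94 and 5.09 in DKO (log2 change -0.94 ± 0.25 SE, limma adjusted p = 0.0213, and 0.0784 without WT replicate 1 or 0.219 without DKO replicate 2). The other (chr1:40493056-40494633), in an intron 299 bp from a start, had 9.64 and 13.0 in WT and 5.90 and 7.19 in DKO (log2 change -0.78 ± 0.25 SE, limma adjusted p = 0.0488). The second call was lost after centring and without WT replicate 2, DKO replicate 1 or DKO replicate 2 (limma adjusted p = 0.0818, 0.303, 0.211 and 0.052). The strongest site of the window (chr1:40500102-40503021) had 19.1 and 20.3 in WT and 18.9 and 12.2 in DKO and did not pass (limma adjusted p = 0.266). The window summed to 87.1 and 82.1 in WT and 61.7 and 63.5 in DKO, and its change of -0.43 ± 0.15 was not called (limma adjusted p = 0.0659). Counting all windows, 4 of 42 shared H3K27ac sites at these genes were called lower and 2 higher, beside 5.6% and 2.79% of 42234 sites.

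**Figure D3:**
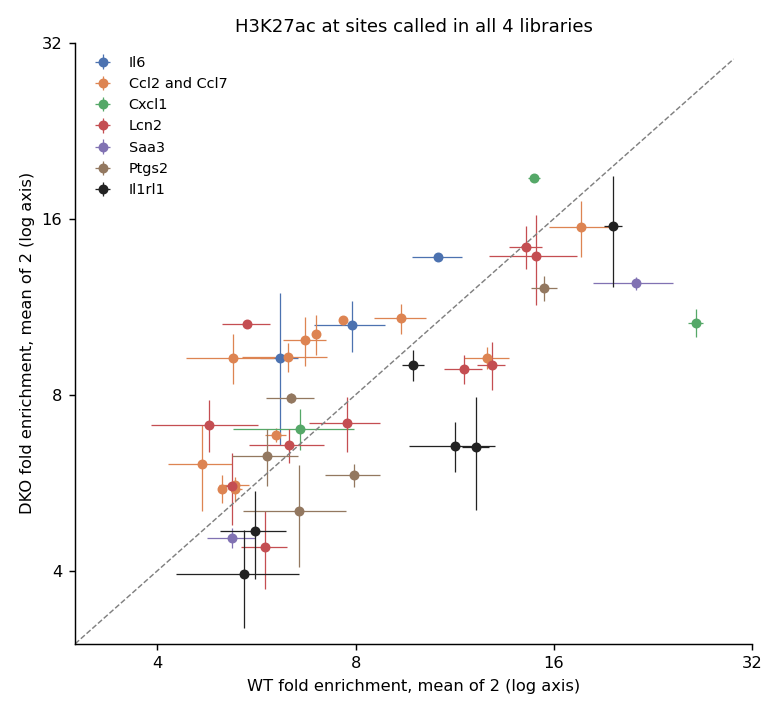
H3K27ac fold enrichment at the 42 sites of the windows that all 4 libraries called, WT on the horizontal and DKO on the vertical axis, both logarithmic. Points are means of 2 libraries, bars span the 2 libraries and the dashed line marks equal values. Most sites scatter around the line, and the Cxcl1 point with WT values of 25.5 and 26.99 lies well below it.

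p300 peaks were few. 4 of the 8 genes, Il6, Cxcl1, Lcn2 and Saa3, had no p300 peak in any library, and the windows together had 6 and 6 in WT and 4 and 2 in DKO (2 and 3 against 4 and 2 with the same number of top peaks). Of 3 sites that both WT libraries called, 1 had no DKO peak, beside 33.6% over the genome. limma called 0 of 4 tested genes and 0 of 2440 windows, and 498 windows had an unadjusted p under 0.05. Among the tested genes, Ccl2 and Ccl7 had the same p300 values. A window that was not called is not shown to be unchanged. Under other settings limma called 0 to 965 windows as lower. Il1rl1 passed with the number of peaks, where counts of 2 and 2 in WT and 1 and 1 in DKO tie within each genotype and give no measure of spread, so that nothing is read from it. The p300 peak in an intron of Il1rl1 (chr1:40492824-40493093), 473 bp from an internal start, had 8.79 and 11.6 in WT and 9.09 and 8.61 in DKO, and the genotypes overlapped (log2 change -0.19 ± 0.24 SE, limma adjusted p = 0.646), beside 3.76% of 1730 shared p300 sites called lower and 0.231% called higher. A CEBPB peak that was called in WT alone lies within it. A further p300 peak of Il1rl1 (chr1:40501582-40502036) had 5.55 and 6.15 in WT and none in DKO. At Ccl2 and Ccl7, the site 23605 bp upstream of Ccl2 (chr11:81825363-81825579) had 5.79 and 10.1 in WT and 4.12 in 1 DKO library. Over the upstream CEBPB site of Ccl2, p300 was called in WT replicate 1 and in both DKO libraries, at 6.56, 6.03 and 7.16. At Ptgs2, p300 had 0 and 3 peaks in WT and 1 and 0 in DKO.

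Brd3 peaks were fewer in DKO cells around 6 of 8 genes, with both DKO libraries below both WT libraries. These were 6 of the 7 genes tested, beside 76% of 14025 windows tested, and by summed fold enrichment DKO lay below at 7 of 7, beside 89.9%. Il6 was too low to be tested. The windows held 35 and 37 Brd3 peaks in WT and 7 and 8 in DKO (36 ± 1.41 and 7.5 ± 0.707, SD, n = 2), a log2 ratio of -2.26 beside -1.65 over all Brd3 peaks. Of 24 sites that both WT libraries called, 16 had no DKO peak, 66.7% (95% Wilson interval 46.7 to 82.0%, counting error only) beside 52% over the genome. limma called 3 of 7 tested genes lower, Ccl2, Ccl7 and Ptgs2, beside 47.6% of windows called lower and 0% higher. Ccl2 and Ccl7 share all their Brd3 peaks and had the same values, so that they are not separate measurements in these counts. None of the 7 was called when values were centred on the median window, where 5.79% of windows were lower and 0.913% higher. With each list held to the same number of top peaks, the direction turned. The windows then held 4 and 6 Brd3 peaks in WT and 7 and 8 in DKO (log2 ratio 0.58), 0 of 2 sites were lost beside 16.4% over the genome, and none of 5 tested genes and 0% of windows were called lower. The changes of Ptgs2, Ccl2 and Ccl7 were 1.55, 0.53 and 0.53 there and did not pass the test. The median change, with all peaks, was -2.06 over the 7 genes, which is the shared value of Ccl2 and Ccl7, and -1.51 over all windows. Without WT replicate 1 or WT replicate 2 none of the 7 was called (limma adjusted p from 0.118 to 0.216 for Ccl2, Ccl7 and Ptgs2), beside 11.4% and 11.1% of windows called lower. Without DKO replicate 1 or DKO replicate 2 there were 6, beside 74.1% and 82.4% of windows.

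Around Ccl2 and Ccl7, Brd3 had 9 and 9 peaks in WT and 2 and 2 in DKO, and summed to 46.3 and 40.5 over 4786 and 3637 bp in WT and to 10.9 and 8.47 over 503 and 733 bp in DKO (log2 change -2.06 ± 0.23 SE, limma adjusted p = 0.00847). The site 2160 bp upstream of Ccl2 (chr11:81845713-81847180) stayed, with 5.87 and 6.46 in WT and 5.47 and 4.52 in DKO (limma adjusted p = 0.393). The strongest lost site (chr11:81820382-81821496) overlaps the upstream CEBPB peak, and had 6.25 and 5.17 in WT. Brd3 was thus not called in DKO at the CEBPB site of highest enrichment, where CEBPB, p300 and H3K27ac were called in both DKO libraries. Of the WT libraries, only replicate 1 had the p300 peak there.

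Around Ptgs2, Brd3 had 11 and 9 peaks in WT and 1 and 2 in DKO, and summed to 46.1 and 40.1 over 4363 and 4225 bp in WT and to 5.58 and 10.7 over 183 and 563 bp in DKO (log2 change -2.33 ± 0.37 SE, limma adjusted p = 0.0177). At the promoter (chr1:151946505-151947643) Brd3 was 4.80 and 7.93 in WT and 6.11 in DKO replicate 2 alone. The strongest lost site, 1082 bp upstream (chr1:151945520-151946362), had 3.67 and 5.40 in WT. At Il1rl1 the libraries of one genotype differed much, with 5 and 11 peaks in WT and 2 and 0 in DKO, and the window was not called (limma adjusted p = 0.116). Its strongest site in WT, in an intron (chr1:40502216-40502845), had 4.90 and 6.05 and none in DKO.

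At Cxcl1, Brd3 had 5 and 4 peaks in WT and 1 and 2 in DKO, and the window just missed the threshold (-1.61 ± 0.46, log2, SE, limma adjusted p = 0.0547). The site at the Mthfd2l start (chr5:91360487-91361208), where H3K27ac fell, had 10.7 and 9.13 in WT and 5.95 and 6.70 in DKO (log2 change -0.65 ± 0.24 SE, limma adjusted p = 0.0662). The strongest lost Brd3 site, 14855 bp upstream of Cxcl1 (chr5:91304638-91305590), had 5.64 and 6.88 in WT. A small Brd3 peak at the Cxcl1 start, added after its values were seen, of 5.03 and 4.19 in WT, was not called in DKO. Lcn2 had 3 and 3 Brd3 peaks in WT and 0 and 1 in DKO (limma adjusted p = 0.101). Its strongest WT site lies at the start of Ciz1 (chr2:32218189-32219111), with 5.36 and 4.44 in WT and 5.66 in DKO replicate 2. The strongest lost one, in an intron of Dnm1 (chr2:32198518-32199000), had 4.15 and 5.24 in WT. The single Brd3 peak of the Saa3 window, at the start of Saal1 (chr7:53965607-53966083), stayed in all 4 libraries, with 7.29 and 9.36 in WT and 4.95 and 5.21 in DKO (limma adjusted p = 0.0583). None of 3 shared Brd3 sites in the windows passed the test, beside 20.6% of 5422 called lower and 0.387% called higher. Il6 had 1 Brd3 peak, in WT replicate 1.

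**Figure D4:**
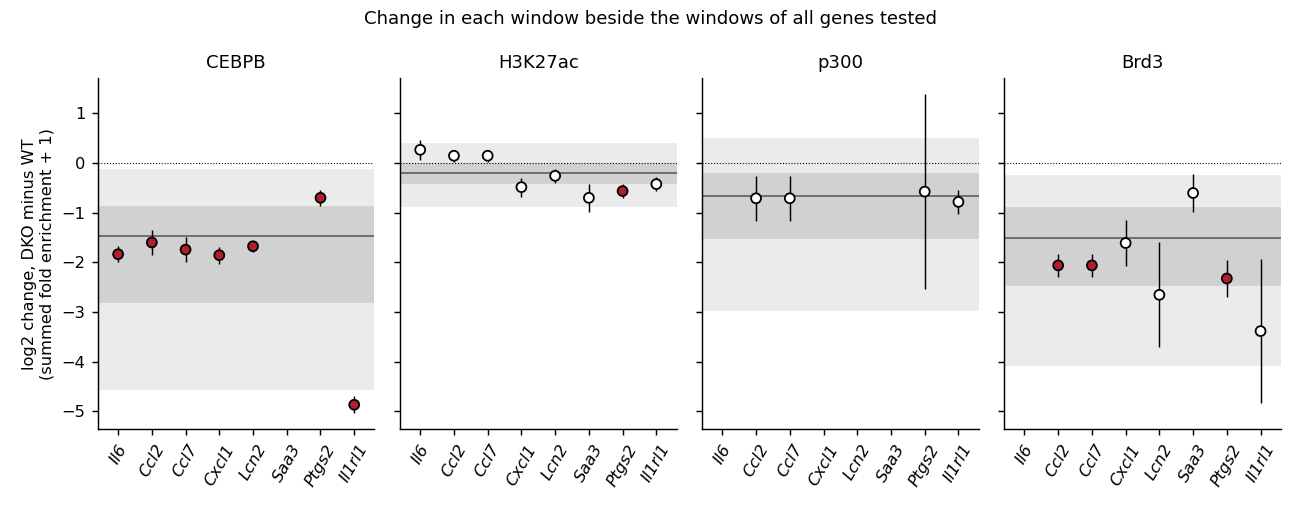
Log2 change of the summed fold enrichment + 1 (DKO minus WT) in the window of each gene with its standard error, for each antibody. Filled points passed the limma test, open points did not, and a gene without a point was not tested. Grey bands span the middle 50% and 90% of all windows tested and the line is their median. Most points lie within the bands, and for CEBPB Il1rl1 lies below both bands and Ptgs2 above the middle one. The place of Il1rl1 there depends on the value of 1 added before the logarithm, since DKO is listed at 0.

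The CEBPB sites lost at these genes overlapped H3K27ac in WT cells at 8 of 14 (57.1%), beside 35.6% of lost sites over the genome, and the kept sites at 4 of 9 (44.4%), beside 47.1%. p300 overlapped 1 of 14 lost and 1 of 9 kept sites, beside 11.5% and 20.0%, and Brd3 overlapped 1 and 2, beside 16.03% and 21.6%. Within 1000 bp of a start of Il6, Ptgs2 and Il1rl1, the genes with a CEBPB peak there in WT, H3K27ac was called in all 4 libraries.

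Other genes of the same pathways were taken from a list of 42 inflammatory genes, of which 41 are in the annotation. limma called 27 of the 30 tested as lower in CEBPB, 15 of 34 in Brd3, 6 of 38 in H3K27ac and 0 of 12 in p300, and none as higher with any antibody, beside 75.4%, 47.6%, 14.6% and 0% of all windows lower. The median log2 changes of the tested genes were -1.85, -1.62, -0.21 and -0.83. Some of these windows share peaks with those above, as Ccl11 with Ccl7, Cxcl2 with Cxcl1, and Saa1 and Saa2 with Saa3. Of the genes called lower, 7 of 27 for CEBPB and 4 of 15 for Brd3 had no peak in either DKO library and passed the filter through WT alone, so that they had to differ and their order follows their WT sums. Cxcl12 and C3 (CEBPB) and Il1r1 and Cx3cl1 (Brd3) are among them. Cxcl12, a homing chemokine, had summed CEBPB enrichments of 28.4 and 30.1 in WT and is listed at 0 in both DKO libraries, and the complement gene C3 had 25.95 and 29.8 and is also listed at 0. For Brd3, Il1r1, the receptor of IL-1, had 28.2 and 21.8 in WT, and Cx3cl1, the gene of fractalkine, had 14.9 and 18.5, and both are listed at 0 in DKO. For H3K27ac, Tlr2, a receptor of bacterial lipoproteins, fell from 36.3 and 35.6 to 3.74 and 9.19 (log2 change -2.41 ± 0.39 SE, limma adjusted p = 0.00570). Il1rap, the co-receptor of both the IL-1 and the IL-33 receptor, fell from 54.7 and 54.1 to 11.4 and 21.4 (log2 change -1.74 ± 0.28 SE, limma adjusted p = 0.00590).

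Outside MEFs, the peak lists of embryonic stem cells (ESCs) of the same genotypes were counted in the same windows. Both DKO libraries had more peaks than both WT libraries at 2 of the 8 genes for CTCF, at 1 for Nanog, at 3 for Sox2 and at 1 for Oct4, beside 13.7%, 41.2%, 32.7% and 62.6% of windows with a peak in any library. Of the 8 genes, some had no peak in any library and would not enter such a share. These were Cxcl1 for Nanog, Ccl2, Ccl7, Cxcl1 and Il1rl1 for Sox2, and Cxcl1 and Il1rl1 for Oct4. The 2 genes for CTCF were the neighbours Ccl2 and Ccl7, with the same counts.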

How the data were processed

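ChIP-seq was done in MEFs of 2 genotypes with 2 biological replicates per genotype and antibody, and input libraries were sequenced as well. Per the authors' methods and processing notes, reads were trimmed (cutadapt 1.16), mapped to mm9 (BWA, listed as 07.17) and freed of blacklisted regions. Peaks were then called for each library. The methods name MACS2 2.1.1.20160309 at its default settings or the peak caller SICER, and different q cutoffs for broad and narrow regions. Which cutoff applied to which list is not stated there. Whether an input library was used is not given in the sources used here. The deposited fold enrichment is the authors' ratio of summit pileup to local background, and the −log10 p and −log10 q deposited beside it were written by the peak caller the authors ran. The lowest −log10 q was 2.00. Read counts were not used here, so the study's test on reads was not repeated.

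Peaks touching the gene body or 50 kb on either side (GENCODE M1) were summed, and log2(summed fold enrichment + 1) was compared with limma 3.58.1 in R 4.3.3 (trended prior, two-sided, no replicate block) over all protein-coding genes with a mean of at least 1 peak, per antibody, with Benjamini-Hochberg adjustment over all windows at 0.05. Peaks of the 4 libraries were merged into sites where they overlapped by 1 bp. Sites in all 4 libraries were tested by limma on log2 fold enrichment. A lost site was called in both WT and neither DKO library. Motifs and sequences were read from mm9 with pysam 0.24.0, and all 467310 MEF peaks lay inside its chromosomes. A pileup was solved where −log10 p was met within 0.0005 by a whole number, and CEBPB lists gave too few, so their depth is unknown. Scripts used Python 3.11.15, pandas 2.3.3, scipy 1.17.1 and matplotlib 3.10.9, and were tested on simulated data. There, when few windows were changed, the smaller of the falls set was called for no antibody and the larger one not for p300 or Brd3, so that a window that was not called is not shown to be unchanged.

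All 8 genes were named. For each gene and antibody the text names the site with the highest mean WT −log10 q, the strongest lost site and each site found in DKO alone, and of the other inflammatory genes the 2 largest falls and rises that passed the test. Other sites that passed the test at shared positions and sites over a named CEBPB peak were added after their values were seen. The genes and lists were chosen with earlier results of these data known. Alternatives were windows of 10 and 100 kb, other measures, pseudocounts, filters and thresholds, centring, and each library left out. Lists of embryonic stem cells (ESCs) and B cells served only for peak numbers in the windows. H3K27me3 and histone H1 had 0 peaks in all 8 windows. The share of all windows with such a peak is not given here, so nothing about these genes is read from that.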

Additional observations from a re-analysis of the deposited data

Results flagged for a closer look

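Peak lists of ESCs, which are outside the MEF comparisons, had more peaks in both DKO than in both WT libraries in some of the windows. CTCF had 2 and 3 peaks in WT and 4 and 4 in DKO in the windows of Ccl2 and Ccl7 (DKO mean 4), beside 13.7% of 20542 windows with that order. Nanog had 3 and 4 in WT and 8 and 8 in DKO around Lcn2 (DKO mean 8), beside 41.2% of windows. Oct4 had 0 and 0 in WT and 4 and 4 in DKO around Saa3 (DKO mean 4), beside 62.6% of windows. Sox2 had no WT peak around Saa3, Lcn2 or Ptgs2 and DKO means of 3, 1 and 1.5, beside 32.7% of windows. The order was common over the genome for Oct4, Nanog and Sox2, and no test was made.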

How the results depend on the processing

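With 2 libraries per genotype the calls rest on a spread shared over windows, and a left-out library leaves 1 sample that is assumed to vary like the rest. The correlation over windows of same-numbered deviations lay between -0.031 and -0.005, so no pairing by replicate number was seen in it. A shift that same-numbered libraries share over all windows would not show in this measure. With the replicate block, genes called lower in their windows were 7 for CEBPB, 2 for H3K27ac (Ptgs2 and Cxcl1, 1 without, beside 17.9% of windows), 0 for p300 and 3 for Brd3, and sites called were 5, 4, 0 and 1 (0 without, for Brd3). Genes called lower, 7 for CEBPB, were 3 with the number of peaks (40.9% of windows, with Lcn2 and Il6 at equal counts within each genotype, which give no spread) and 1 after centring (25.3%). They were 5 of 7 with the highest fold enrichment (66.5% of windows, adjusted p 0.0858 for Il6 and 0.058 for Ptgs2) and 5 of 6 with 10 kb (74.2%, Cxcl1, -2.86, adjusted p 0.0975). With 10 kb Ccl2 and Ccl7 were at -4.36 each. The CEBPB sites left in their windows were called in WT alone, so that these windows had to differ. For H3K27ac, 1 as reported, there were 3 with 100 kb (24.3% of windows), and 0 with the number of peaks (1.51%), the same number of top peaks (9.72%), centring (2.15%) and a constant prior variance (0.659%). With the highest fold enrichment the 1 gene called (5.57% of windows) was Saa3 (-0.72, limma adjusted p 0.0311) and not Ptgs2 (-0.32, limma adjusted p 0.215). With 10 kb it was Ptgs2, at -0.98 (limma adjusted p 0.0334, 3.23% of windows). For p300 there was 1 with the number of peaks (8.73%, again with tied counts). For Brd3, 3 as reported, there were 6 with 100 kb (65.5%), and 0 with the highest fold enrichment (22.5%), the same number of top peaks (0%) and centring (5.79%). With 10 kb there were 2 of 5 (30.1%). Ccl2 was then at -1.04 and Ccl7 at -3.67 (limma adjusted p 0.0423 and 0.00352), and Ptgs2, at -3.12, was not called (limma adjusted p 0.153). Leaving out 1 library gave 4 to 7 (CEBPB, 47.1 to 86.8% of windows), 0 to 0 (H3K27ac, 0 to 2.59%, and p300, 0 to 4.75%) and 0 to 6 (Brd3, 11.1 to 82.4%) genes, and 3 to 6, 2 to 3, 0 to 0 and 0 to 1 sites. Called sites fell to 0 for CEBPB after centring, and to 1 (summits within 200 bp) and 2 (constant prior variance) for H3K27ac. The log2 ratio of peak numbers was -2.26 (CEBPB) and -1.81 (p300) with 10 kb and -2.12 (Brd3) with 100 kb. With equal numbers of top peaks it was -0.18 for CEBPB and turned to 0.26 for p300 and 0.58 for Brd3, and lost shares were 37.5%, 0% and 0%, beside 16.9%, 14.99% and 16.4% over the genome. This setting removes most WT peaks by construction. Left-out libraries gave ratios of -1.86 to -1.64 (CEBPB), -0.25 to -0.05 (H3K27ac), -1.58 to -0.58 (p300) and -2.36 to -2.17 (Brd3), and lost shares of 60 to 69.6%, 14.8 to 25.4%, 33.3 to 66.7% and 71.4 to 79.2%, beside 58.9 to 62.4%, 16.1 to 24.04%, 43.9 to 53.6% and 58.5 to 67.4% over the genome. Of single genes, the Ptgs2 CEBPB change turned to 0.75 after centring. With the same number of top peaks the Brd3 changes of Ptgs2, Ccl2 and Ccl7 turned to 1.55, 0.53 and 0.53 and did not pass the test. Windows called lower over all genes ranged over the settings from 1618 to 8021 (CEBPB), 0 to 4571 (H3K27ac), 0 to 965 (p300) and 0 to 11555 (Brd3), and shared sites called lower from 960 to 2938, 1424 to 3200, 0 to 96 and 36 to 1413. The cause of these changes was not tested.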
